A study of Mus musculus with 2 samples.

Results

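The 9 lysosomal protease genes described here were measured across the cells of a CD64-sorted mouse thymus library: the cathepsins Ctsa, Ctsb, Ctsc, Ctsd, Ctsh, Ctsl, Ctss and Ctsz, and legumain (Lgmn). They were taken by symbol from the 32285 gene rows of the library made in 2021, and all 9 were found. Of 3214 barcodes, the 3188 that reached 500 UMIs and 300 detected genes, with no more than 10% of UMIs from mitochondrial genes, were used. A UMI (unique molecular identifier) marks 1 captured transcript molecule. The mice were adult C57BL/6 animals with no stated treatment or genetic change, and their number and ages were not given in the sources used here. Thymi were digested with enzymes, CD64+ cells were sorted by flow cytometry, and 10x Genomics 3′ libraries were made. CD64 is the high-affinity IgG receptor encoded by Fcgr1. A second library of the same kind, from 2024, gave depth only, because its 33696 rows were used without gene names. All gene values therefore came from 1 library, no test between libraries was possible and no p-value is given.

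These enzymes break down proteins inside endosomes and lysosomes. In cells that present antigen they also cut the invariant chain (Cd74), which must be removed before MHC class II molecules can take up peptide. Cathepsin S is known for that step in macrophages, dendritic cells (DCs) and B cells, and cathepsin L for the same step in the cortical epithelium of the thymus. Legumain, an endopeptidase that cuts after asparagine, also processes several cathepsins into mature forms.

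The genes lay on 7 chromosomes of GRCm38 in the GENCODE M21 annotation. Ctsa (chr2:164832873-164841032, plus strand) and Ctsz (chr2:174427493-174439039, minus) shared a chromosome, as did Ctsc (chr7:88278085-88310888, plus) and Ctsd (chr7:142375911-142388038, minus). The others were Ctsb (chr14:63122462-63145923, plus), Ctsh (chr9:90054152-90076089, plus), Ctsl (chr13:64359337-64370890, minus), Ctss (chr3:95526786-95556403, plus) and Lgmn (chr12:102394084-102439813, minus). RefSeq start-site windows on GRCm38.p6, of 250 bases before to 50 after the start, were matched for 7 of the 9. The letters CACGTG, the core of the element bound by Tfeb and related regulators of lysosomal genes, were searched in them. This motif reads the same on both strands. It occurred in 4 of the 9 windows of these genes, in 1 each of Ctsa, Ctsd, Ctsl and Lgmn. That was 4 of the 7 matched genes. Over all genes it occurred in 7.15% of 32851 windows of the same length, or 8.09% of 27025 genes. Ctsa and Lgmn each had 2 windows, and in both genes the window covering the start of the GENCODE span held no CACGTG. The windows of Ctsd, Lgmn and Ctsl are shown because these genes separated macrophage-like from DC-like cells most by fold together with Ctsb, and that of Ctss because it was shared by both. Capitals mark CACGTG in the first 3 sequences, and GAGGAA on either strand, a core recognised by Spi1, in the last. The Ctsd window is chr7:142387778-142388077 (minus), that of Lgmn chr12:102439043-102439342 (minus, 1 of 2 starts), that of Ctsl chr13:64370471-64370770 (minus) and that of Ctss chr3:95526536-95526835 (plus). The Lgmn and Ctsl windows lie inside the GENCODE spans of their genes, downstream of the first annotated start.
Ctsd: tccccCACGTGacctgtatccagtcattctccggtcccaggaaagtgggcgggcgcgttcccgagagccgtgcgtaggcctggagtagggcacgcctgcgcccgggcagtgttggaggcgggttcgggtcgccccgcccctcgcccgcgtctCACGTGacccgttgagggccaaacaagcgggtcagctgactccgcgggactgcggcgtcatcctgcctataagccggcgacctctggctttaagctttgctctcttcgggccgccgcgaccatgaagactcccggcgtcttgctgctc
Lgmn: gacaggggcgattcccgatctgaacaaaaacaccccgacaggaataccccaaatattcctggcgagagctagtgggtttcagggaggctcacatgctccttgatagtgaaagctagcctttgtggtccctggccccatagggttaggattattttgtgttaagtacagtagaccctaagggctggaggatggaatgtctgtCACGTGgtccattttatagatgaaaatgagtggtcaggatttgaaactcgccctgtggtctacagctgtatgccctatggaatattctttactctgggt
Ctsl: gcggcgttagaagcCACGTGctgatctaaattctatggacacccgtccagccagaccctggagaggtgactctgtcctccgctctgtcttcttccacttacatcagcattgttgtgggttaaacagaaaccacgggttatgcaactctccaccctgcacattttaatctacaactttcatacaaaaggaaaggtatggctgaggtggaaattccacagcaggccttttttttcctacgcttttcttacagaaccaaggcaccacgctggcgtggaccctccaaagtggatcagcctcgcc
Ctss: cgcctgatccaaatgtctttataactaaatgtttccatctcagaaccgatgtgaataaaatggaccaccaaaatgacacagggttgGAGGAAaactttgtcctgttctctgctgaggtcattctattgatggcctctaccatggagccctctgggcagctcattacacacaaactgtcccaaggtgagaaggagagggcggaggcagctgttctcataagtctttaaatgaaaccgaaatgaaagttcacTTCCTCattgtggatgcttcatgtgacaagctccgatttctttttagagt
In Ctsd the motif began 245 and 98 bases before the start site. It began 49 bases before the start in Lgmn and 236 bases before it in Ctsl. GAGGAA was found in Ctsc and Ctss, and in 28.3% of all windows. The spaced palindrome TTCNNNGAA, searched on both strands, was found only in Ctsc among the 7 and in 8.30% of all windows. A match describes letters in the window and does not show that a factor binds there.

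The library held 8534578 UMIs, with a median of 2157.5 per barcode (502 to 18653), and the 2024 library 24569270, with a median of 5312.0 over 2815 barcodes. Cells were grouped into 13 clusters without using the 9 genes, other cathepsins or protease inhibitors, so that the classes did not rest on the genes described. The clusters were named by markers into 7 classes: conventional DC-like (758 cells), monocyte-like (515), macrophage-like (474), neutrophil-like (405), T lineage-like (362), NK and ILC-like (natural killer and innate lymphoid, 302) and B lineage-like (215). Clusters of 54 and 103 cells stayed unnamed. The labels call the cells macrophages, whereas 14.9% of the cells (interval 13.7 to 16.2%) were macrophage-like and 23.8% were conventional DC-like. Levels are given as CPM, the counts of a gene per 1000000 UMIs of its class. The Fcgr1 level was 112 CPM in the macrophage-like class, 53.0 in the monocyte-like class and 5.03 in the DC-like class. A UMI of the C1q genes, defining macrophage markers, was found in 63.7% of macrophage-like cells and in 9.37% of the DC-like class. The RNA level does not measure the sorted surface protein. Intervals are exact 95% Poisson intervals for CPM and binomial intervals for shares, and they cover counting error only.

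The 9 genes together supplied 23904 UMIs, 0.281% of all, and 84.6% of cells held at least 1 of them. Their summed share of a class's UMIs was highest in macrophage-like cells, at 0.644% (0.631 to 0.657%). It was 0.353% in monocyte-like and 0.25% in DC-like cells (0.244 to 0.256%), and 0.0756% in T lineage-like cells. Ctss had the highest level over all cells, 746 CPM (rank 187 among genes), and Ctsl the lowest, 43.0 CPM (rank 2769). A 3′ UMI counts a transcript once whatever its length, so levels were not divided by length. Differences in capture between genes were not corrected.

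**Figure D1:**
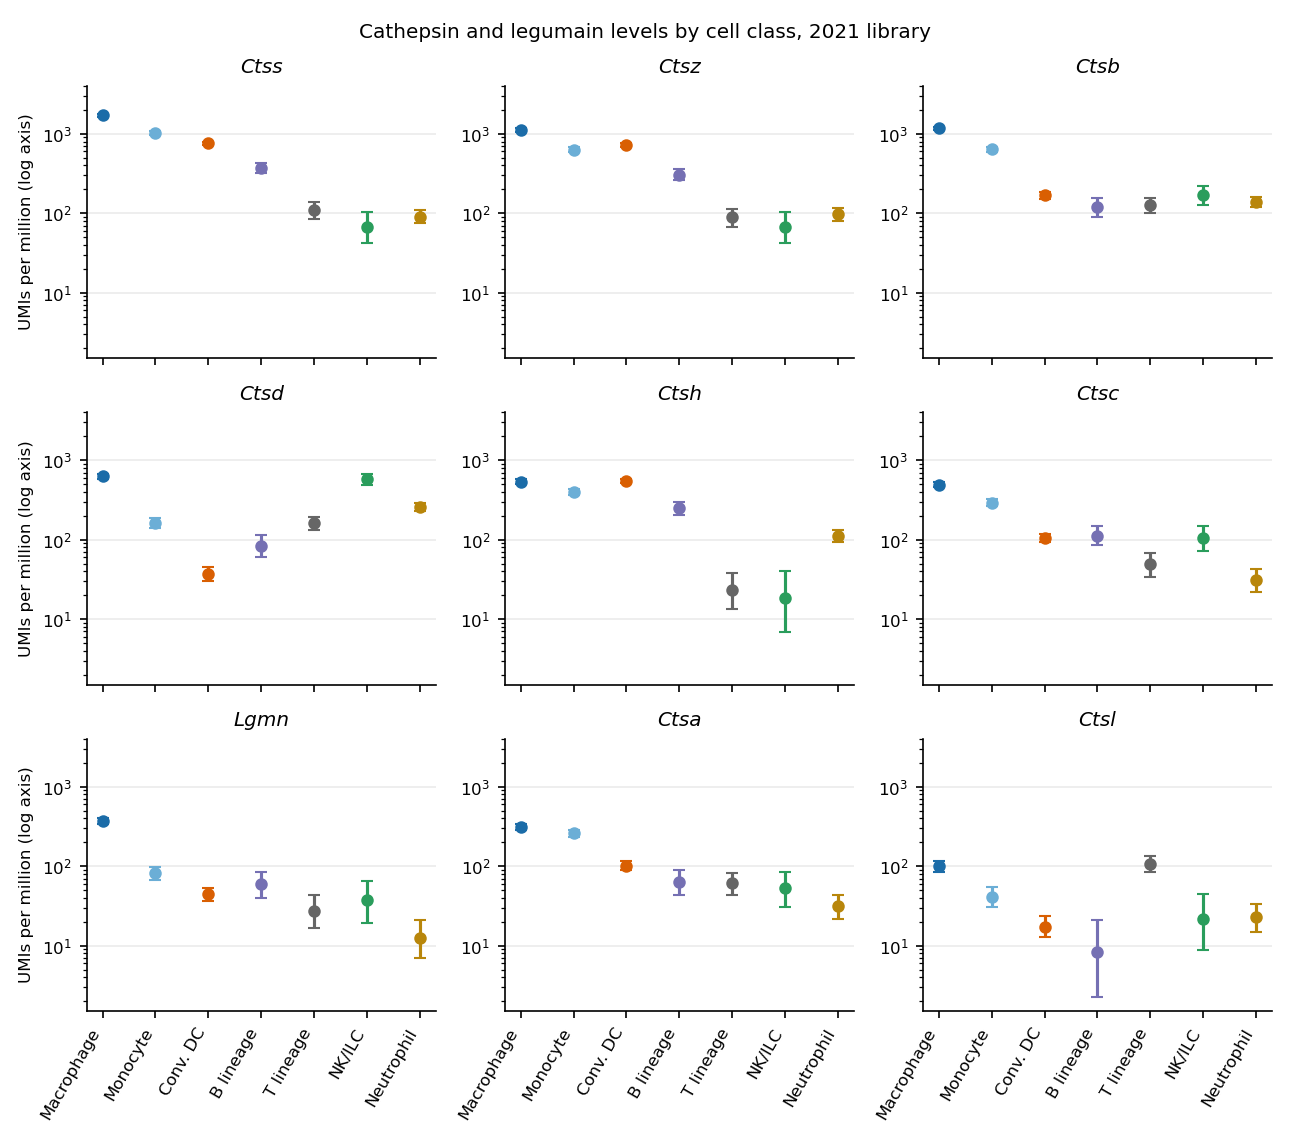
CPM (log axis) of each of the 9 genes in the 7 named classes of the 2021 library. Points are class levels and bars exact 95% Poisson intervals; Ctsd is lowest in conventional DC-like cells (37.1) and high in macrophage-like (626) and NK/ILC-like cells (575), whereas Ctsh is level between macrophage-like (539) and DC-like cells (547).

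Macrophage-like cells were set against conventional DC-like cells first. Ctsd, Lgmn, Ctsb, Ctsc, Ctsl, Ctsa and Ctss were at least 2-fold higher in macrophage-like cells, and none of the 9 was at least 2-fold higher in DC-like cells. A gene was counted where the log2 ratio of CPM, with 10 CPM added to both sides, was at least 1 or at most -1. By the same rule, 7.30% of the 8906 genes with at least 20 UMIs in both classes together were higher in macrophage-like cells and 1.76% were higher in DC-like cells. The median log2 ratio was 2.0 over the 9 genes and 0.13 over all 8906. Folds below are CPM ratios with nothing added.

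Ctsd, the main aspartic protease of lysosomes, differed most. The macrophage-like level was 626 CPM (942 UMIs, interval 587 to 668) and the DC-like level 37.1 CPM (96 UMIs, 30.1 to 45.3), a 16.9-fold difference (13.7 to 21). Its log2 ratio of 3.76 was above that of 99.8% of the genes. DC-like cells had the lowest Ctsd level of the 7 classes, and their interval did not overlap that of the next class, B lineage-like cells at 84.2 CPM. Lgmn stood at 369.8 CPM (339.7 to 402) in macrophage-like and 44.1 (36.4 to 52.9) in DC-like cells, 8.39-fold apart (6.85 to 10.4). No other named class exceeded 81.1 CPM for Lgmn, the level of monocyte-like cells, so that of the 9 genes it had the widest gap between macrophage-like cells and the class that came next, 4.56-fold (3.69 to 5.68).

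Among the cysteine cathepsins, Ctsb, which acts both inside and at the ends of proteins, stood at 1179.8 CPM in macrophage-like (1126 to 1236) and 169 in DC-like cells (153 to 185). That was a 7.0-fold difference (6.30 to 7.79). Monocyte-like cells lay between at 639 CPM (596 to 684), and the 4 remaining named classes lay between 119 and 169.9 CPM with overlapping intervals, level with DC-like cells. In NK and ILC-like cells 23 of the 55 Ctsb UMIs came from 1 cell. Ctsc, the dipeptidyl peptidase that activates granule serine proteases, stood at 491 CPM (457 to 528) against 106 (93.4 to 119), 4.66-fold apart (4.05 to 5.37). Its order was macrophage-like, then monocyte-like at 292 CPM, then B lineage-like, DC-like and NK and ILC-like cells at 105 to 113 CPM with overlapping intervals.

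Ctsl, an endopeptidase, was scarce in both classes, at 99.8 CPM in macrophage-like (150 UMIs, 84.4 to 117) and 17.4 in DC-like cells (45 UMIs, 12.7 to 23.3). The difference was 5.73-fold (4.09 to 8.19), and 9 of the 45 DC-like UMIs came from 1 cell. Ctsa is a serine carboxypeptidase that also protects the glycosidases Neu1 and Glb1. Its level was 309.9 CPM (282 to 339) in macrophage-like and 102 (89.8 to 115) in DC-like cells, 3.05-fold apart (2.61 to 3.56). Monocyte-like cells, at 259.6 CPM (232 to 289), overlapped macrophage-like cells for Ctsa, so at the class level both stood apart from DC-like cells. Within the monocyte-like class this held for a cluster of 422 cells, at 336 CPM (297 to 377). A dividing cluster of 93 cells, at 121 CPM (91.2 to 158), overlapped DC-like cells.

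Ctss was the most abundant of the 9 in macrophage-like cells and in DC-like cells. It stood at 1708 CPM (1642 to 1775) against 756 (723 to 790.0), a 2.26-fold difference (2.13 to 2.40). Monocyte-like cells had 1025 CPM and B lineage-like cells 372, and no interval of these 4 classes overlapped the next. T lineage-like (109), neutrophil-like (91.0) and NK and ILC-like cells (68.0) were lower than all 4. Ctsz, a carboxypeptidase also called cathepsin X, was 1.54-fold higher (1.44 to 1.65) in macrophage-like cells, at 1116 against 723 CPM, which is under 2-fold. Ctsh, an aminopeptidase, was level between them. It stood at 539 CPM (502 to 577) in macrophage-like and 547 (519 to 577) in DC-like cells, a ratio of 0.984 (0.902 to 1.07). Ctsh was 400.0 CPM in monocyte-like and 248 in B lineage-like cells and only 18.5 to 23.2 CPM in NK and ILC-like and T lineage-like cells.

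Markers of each class were also present in the other. The 16 macrophage markers summed to 7512 CPM in macrophage-like and 185 CPM in DC-like cells, with 2 of the 16 at 0 in the latter, and the 18 DC markers to 849.9 and 2993 CPM. When only DC-like cells without a C1q UMI (687) and macrophage-like cells without a UMI of Flt3, Zbtb46, Xcr1, Cd209a or Ccr7 (379) were compared, the log2 ratio with 10 CPM added was 4.25 for Ctsd, 3.14 for Lgmn, 3.01 for Ctsb and 1.39 for Ctss. Over all cells of the classes these were 3.76, 2.81, 2.74 and 1.17.

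**Figure D2:**
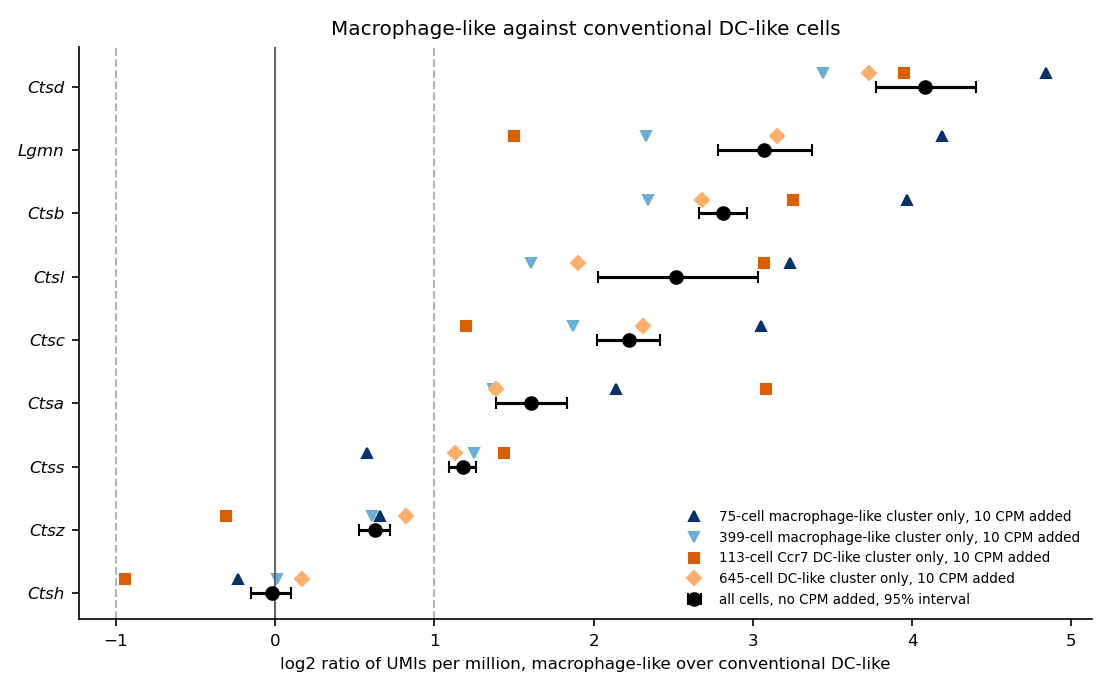
The log2 ratio of CPM, macrophage-like over conventional DC-like cells, for each gene. Black points are all cells with exact 95% intervals, coloured symbols the ratio when 1 cluster stands for its class, with 10 CPM added, and dashed lines 2-fold; Ctsd lies beyond 3 for every choice of cluster, while Ctsh runs from -0.94 with the 113-cell DC-like cluster to 0.17 with the 645-cell one.

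The make-up of the 9 transcripts therefore differed between the classes. In DC-like cells Ctss, Ctsz and Ctsh gave 30.2%, 28.9% and 21.9% of the UMIs of the 9 genes, with Ctsb at 6.74% and Ctsd at 1.48%. In macrophage-like cells Ctss gave 26.5%, Ctsb 18.3%, Ctsz 17.3%, Ctsd 9.73%, Ctsh 8.37% and Lgmn 5.74%. Ctsd alone made up 51.5% of them in NK and ILC-like cells (46.2 to 56.8%) and 32.4% in neutrophil-like cells. Ctsl made up 14.2% (11.3 to 17.5%) in T lineage-like cells and under 3% in each other named class.

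**Figure D3:**
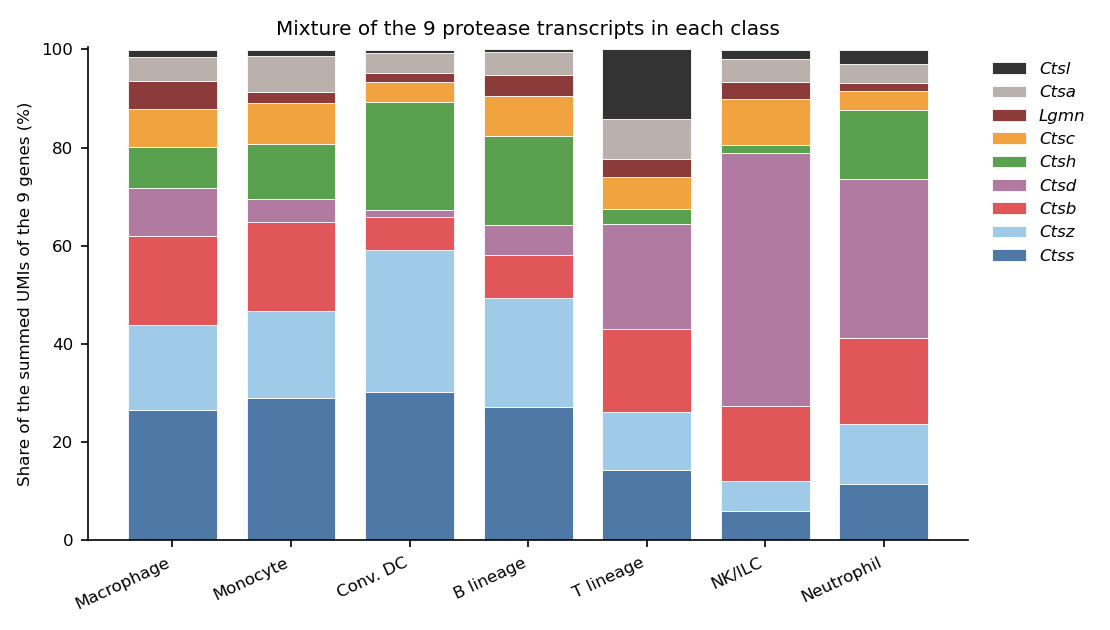
Share (%) of the summed UMIs of the 9 genes taken by each gene, in each named class; bars sum to 100. Conventional DC-like cells are mostly Ctss, Ctsz and Ctsh (30.2%, 28.9% and 21.9%), and Ctsd takes 51.5% in NK/ILC-like cells.

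The same contrast was looked at cell by cell, with each cell thinned to 2000 UMIs so that depth was equal. This left 337 macrophage-like and 675 DC-like cells and dropped 137 and 83 shallower ones. Ctsd was found in 43.0% of macrophage-like (37.7 to 48.5%) and 6.52% of DC-like cells (4.78 to 8.65%). Without thinning the shares were 56.1% and 11.1%, at median depths of 2625.5 and 3329.0 UMIs. Lgmn was found in 35.9% against 7.11% of thinned cells, Ctsb in 69.1% against 25.8%, Ctsc in 56.4% against 16.4% and Ctsl in 16.0% against 2.22%. Ctss (89.0% and 73.2%), Ctsz (80.4% and 70.4%) and Ctsh (62.0% and 61.5%) were found in most cells of both classes. No class here is known to lack these lysosomal enzymes altogether. The lowest thinned shares in T lineage-like cells (93 cells) were 1.08% for Lgmn and 2.15% for Ctsh. Without thinning, all 362 T lineage-like cells (median 961.5 UMIs) gave 3.31% and 2.49%. Ctsb exceeded Ctsh in 47.8% of thinned macrophage-like cells and Ctsh exceeded Ctsb in 30%. In DC-like cells the shares were 11.1% and 51.4%. The Ctsb to Ctsh balance thus leaned opposite ways in the pair of classes, with 22.3% and 37.5% of cells tied.

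The macrophage-like class joined a cluster of 75 cells, led by genes that included Gdf15, Vcam1, Spic, Slc40a1 and Mertk, and a cluster of 399 cells, led by genes that included Ccl12, Pf4, Cfb, C1qa and Cxcl9. Lgmn, Ctsb, Ctsl, Ctsd and Ctsc were at least 2-fold higher in the smaller cluster and none of the 9 was at least 2-fold higher in the larger. Over 6584 genes, 10.7% were higher in the smaller cluster by the same rule and 4.59% in the larger. The median log2 ratio was 1.18 over the 9 genes and 0.13 over all.

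Lgmn stood at 977 CPM in the smaller cluster (853 CPM at its lower bound) and 262 in the larger, a 3.73-fold difference (3.13 to 4.43). Ctsb stood at 2782 against 896 CPM, 3.10-fold apart (2.81 to 3.42), and Ctsd at 1340.1 against 500.2 CPM, 2.68-fold apart (2.33 to 3.08). Ctsl stood at 248 CPM (56 UMIs) against 73.6 (94 UMIs), and Ctsc at 947 against 411 CPM. Ctsa, at 482 against 279 CPM, was 1.73-fold higher (1.38 to 2.14). Of the 7 genes that led in macrophage-like cells over DC-like cells, 5 were therefore at least 2-fold higher again in the iron-exporter (Slc40a1) cluster. Of 17 other lysosomal hydrolases and membrane proteins, 4 were at least 2-fold higher there and 0 lower. Their median log2 ratio was 0.59, and 10.7% of all genes were higher by that rule. Ctss went the other way, at 1132 against 1809.7 CPM, and the larger cluster was 1.60-fold higher (1.40 to 1.83). Ctsz (1150.0 and 1109.9 CPM) and Ctsh (464 and 552 CPM) did not differ beyond their counting intervals. MHC class II genes were also lower in the smaller cluster, 9 of 11 by at least 2-fold, against 4.59% of all genes. Cd74 stood at 6285 against 19917 CPM and Ciita, the class II transactivator, at 4.42 against 93.9 CPM.

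The larger cluster was not uniform for C1q. Of its 399 cells, 228 held a C1q UMI (median 2941.0 UMIs per cell) and 171 held none (median 2498.0). Ctsd was 786 CPM (724 to 851) in the cells with C1q and 81.1 (58.5 to 109.7) in those without. Ctsb was 1262 against 359 CPM, Lgmn 359 against 119.8 CPM and Ctsl 107 against 25.1 CPM. The 171 cells thus lay between DC-like cells and the C1q-bearing cells for Ctsd, Ctsb and Lgmn. Monocyte-like cells had 163 CPM of Ctsd and 639 of Ctsb, above the 171 cells. Their Lgmn level of 81.1 CPM was lower, with overlapping intervals. The 399-cell cluster raised 8 of the 16 macrophage markers and also the monocyte markers Ccr2 and Fn1. The part of monocyte-like cells in it was not tested. For Ctss (1969.8 against 1575 CPM) and Ctsh (587 against 500.4 CPM) the cells with and without C1q were much closer. This split was made after the data had been seen, and a C1q UMI can be missed in a shallow cell.

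**Figure D4:**
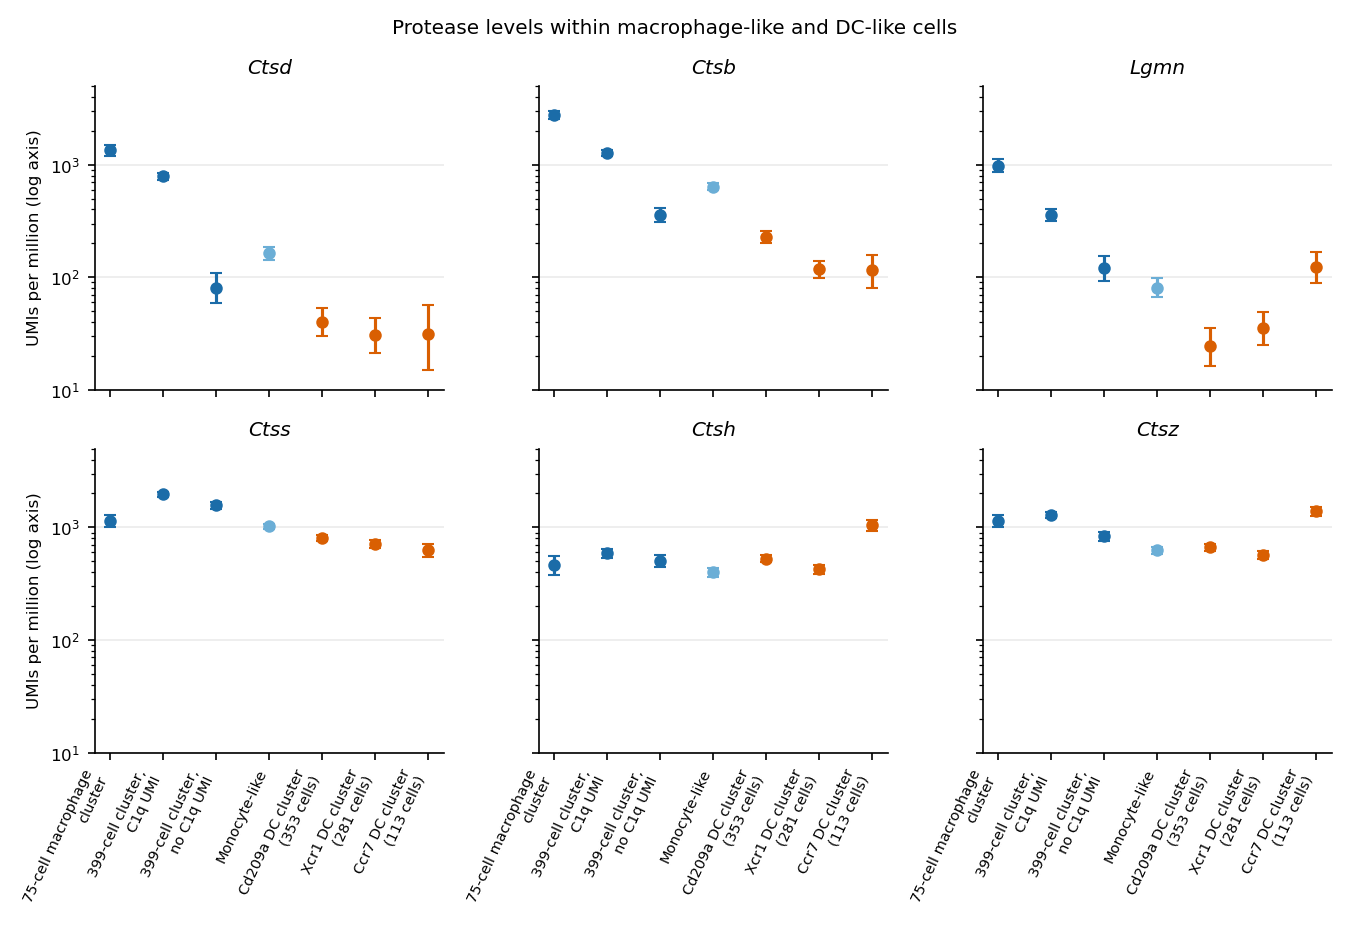
CPM (log axis) of 6 of the genes in groups of macrophage-like (dark blue), monocyte-like (light blue) and DC-like cells (orange), with exact 95% Poisson intervals. Ctsd, Ctsb and Lgmn descend from the 75-cell cluster to the cells without a C1q UMI, while Ctss, Ctsh and Ctsz span a narrower range; Ctsh (1040.3) and Ctsz (1385) are highest in the Ccr7 DC-like cluster.

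At a finer clustering (17 clusters) 49 shallow cells (median 685.0 UMIs), led by Pf4, Prg4, Ecm1 and Alox15, formed a cluster of their own that stayed unnamed. They held 2532 CPM of Ctsd (129 UMIs, 2114 to 3008) and 2924 CPM of Ctsb (149 UMIs, 2473 to 3433), levels as high as or higher than in the 75-cell cluster. Ctsc stood at 667, Lgmn at 687 and Ctss at 1511 CPM there. In the coarser clustering 48 of the cells fell in the macrophage-like class. Without them the Ctsd level of macrophage-like cells was no longer the highest of the named classes, and NK and ILC-like cells came first.

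Against monocyte-like cells, macrophage-like cells had at least 2-fold more Lgmn, Ctsd and Ctsl, and none of the 9 was at least 2-fold higher in monocyte-like cells. Over 8091 genes the shares were 5.64% and 2.45%. The median log2 ratio was 0.82 over the 9 and 0.06 over all genes. Ctsd was 626 against 163 CPM, 3.84-fold apart (3.31 to 4.49). Ctsb (1.85-fold), Ctsz (1.78-fold), Ctsc (1.69-fold) and Ctss (1.67-fold) were higher by less than 2-fold, Ctsh by 1.35-fold (1.20 to 1.51) and Ctsa by 1.19-fold (1.03 to 1.38).

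The monocyte-like class joined a cluster of 422 cells, led by genes that included Ace and Treml4, and a dividing cluster of 93 cells led by F13a1 and with Birc5 and Aurkb. The dividing cluster raised 4 of the 14 monocyte markers. Its 12 neutrophil markers summed to 8234 CPM, against 3656 in the whole monocyte-like class and 469705 in neutrophil-like cells. The part of granulocyte-related cells in it was not tested. Levels in the larger and the dividing cluster were far apart for Ctss (1335 and 458 CPM), Ctsb (803 and 339 CPM), Ctsa (336 and 121 CPM) and Lgmn (105 and 37.4 CPM). Against the larger cluster alone the same 3 genes, Lgmn, Ctsd and Ctsl, were at least 2-fold higher in macrophage-like cells and 0 lower, with 5.67% and 1.84% over 7620 genes. There Ctsa turned direction, at 309.9 CPM in macrophage-like cells against 336, with a ratio of 0.923 (0.794 to 1.08) whose interval included 1. Against the dividing cluster alone 5 genes passed (Lgmn, Ctsd, Ctss, Ctsb and Ctsa) and 0 were lower, with 14.2% and 5.33% over 7316 genes.

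The DC-like class also held unlike clusters. The cluster of 113 cells carried all 7 markers of mature, migrating DCs, among them Ccr7, Fscn1 and Ccl22. Compared with the 645 other DC-like cells, 4 of the 9 genes were at least 2-fold higher there (Lgmn, Ctsz, Ctsh and Ctsc) and 2 at least 2-fold lower (Ctsa and Ctsl). Over 7407 genes, 7.37% were higher and 16.0% lower by that rule. The medians were -0.22 over the 9 and -0.25 over all genes.

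Ctsh stood at 1040.3 CPM in the mature cluster (335 UMIs) and 477 in the other DC-like cells, 2.18-fold apart (1.92 to 2.47), and 1040.3 was its highest level in any of the 13 clusters. Ctsz, at 1385 against 629 CPM, was 2.20-fold apart (1.98 to 2.45) and was likewise highest there among the 13 clusters, though the Pf4 and Prg4 cells of the finer clustering had 1570.0 CPM (1245 to 1954). Lgmn was 124 CPM (40 UMIs) against 32.7 (74 UMIs), 3.80-fold apart (2.52 to 5.66), still below its macrophage-like level of 369.8 CPM. Ctsa was lower, at 27.9 CPM (9 UMIs) against 112 CPM, and the other DC-like cells had 4.01-fold more (2.08 to 8.88). Ctsl had 1 UMI in the mature cluster. Ctss (624 and 774 CPM), Ctsb (115 and 176 CPM) and Ctsd (31.1 and 38 CPM) differed by less than 2-fold.

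The other DC-like cells split at the finer clustering mainly into clusters of 281 and 353 cells. Compared with the remaining DC-like cells, the first raised 4 of 6 markers of type 1 DCs (Xcr1, Tlr3, Itgae and Cd207). It also raised 2 of 6 cell division genes (Birc5 and Ube2c). By the same comparison the 353 cells raised 4 of 5 markers of type 2 DCs (Cd209a, Mgl2, Clec10a and Cd7). The second cluster was also led by Cd209d, Cd209e, Prg2 and Prss34, so it is called here by Cd209a. It also raised 4 of 10 plasmacytoid DC markers (Siglech, Tcf4, Cox6a2 and Runx2) and the basophil gene Mcpt8. The 10 plasmacytoid markers summed to 917 CPM there, 328 CPM in the Xcr1 cluster and 593 CPM in the whole conventional DC-like class, and the part of such cells in the differences below was not tested. Ctsl stood at 32.8 CPM (39 UMIs) in the Cd209a cluster and 4.68 (5 UMIs) in the Xcr1 cluster, a 7.02-fold difference (2.76 to 22.8), and 9 of the 39 UMIs were in 1 cell. Ctsb was 1.92-fold higher (1.55 to 2.39) in the Cd209a cluster, at 227 against 118 CPM. Ctss (810.2 and 712 CPM), Ctsz (667 and 568 CPM) and Ctsh (529 and 424 CPM) were each higher there by 1.25-fold or less. The intervals of the ratio included 1 for Ctsa, Ctsc, Ctsd and Lgmn. Ctsd was low in both, at 40.4 and 30.9 CPM.

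Outside the myeloid antigen-presenting cells, Ctsd and Ctsl had patterns of their own. Ctsd stood at 575 CPM (186 UMIs, 495 to 663) in NK and ILC-like cells, overlapping the macrophage-like level, with a UMI in 40.7% of 302 cells. Neutrophil-like cells had 257 CPM (229 to 287). The unnamed cluster of 103 cells, led by Ifitm1, Ccl3 and Csf1 and shallow (median 777.0 UMIs), had 1009.8 CPM (88 UMIs, 809.9 to 1244). At the finer clustering the neutrophil-like cells ranged from 119 CPM in the Elane and Mpo cluster to 313 in the Ltf and Mmp9 cluster and 763 in the Cxcr2 and Retnlg cluster. The last, of 184 cells, took in all 103 cells of the unnamed cluster and 78 of the 405 neutrophil-like cells. It also raised 6 of 7 mast cell and basophil markers, which summed to 1142 CPM there, and their part in its Ctsd level was not tested. Ctsd was also set against the C1q genes. There were 12.1 Ctsd UMIs per 100 C1q UMIs in macrophage-like cells (11.3 to 12.9), 171 in NK and ILC-like cells (134 to 218) and 233 in neutrophil-like cells (189 to 288). In DC-like cells there were 59.3 (45.5 to 76.7). The part of free RNA in these levels was not tested. DC-like cells with a C1q UMI (71 cells) had 116 CPM of Ctsd, against 28.4 in the 687 without, whereas Lgmn was 50.1 against 43.4 CPM.

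Ctsl was as high in T lineage-like cells, at 107 CPM (74 UMIs, 84.4 to 135), as in macrophage-like cells at 99.8 CPM, with overlapping intervals. At the finer clustering its level was 292 CPM (25 UMIs, 189 to 431) in 131 shallow Rag1 and Cd8b1 cells (median 598.0 UMIs), 86.2 in the Dntt cluster and 51.8 in a Tnfrsf4 and Ikzf2 cluster. The 81-cell macrophage-like cluster at that setting had 240.2 CPM (184 to 308). Cathepsin L is abundant in cortical thymic epithelium, so epithelial markers were looked at beside it. Krt5, Krt8, Krt14, Psmb11, Foxn1 and Aire had 0 UMIs, 6 of the 8 epithelial markers, in each T lineage-like cluster. The 8 markers summed to 6 and 9 UMIs there. In the 225-cell cluster 1 of 27 cells with a Ctsl UMI held an epithelial UMI (3.70%, against 2.02% of cells without Ctsl). There 2 of 27 held a macrophage marker UMI (7.41%, against 19.2%). In the other, of 137 cells, 3 of 31 cells with a Ctsl UMI held an epithelial UMI (9.68%, against 2.83% of cells without Ctsl) and 9 of 31 a macrophage marker UMI (29.0%, against 24.5%). The part of RNA from either source in the T lineage-like level was not tested.

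Other genes of the pathway were read from lists. Over all 8906 genes, 7.30% were at least 2-fold higher in macrophage-like cells and 1.76% in DC-like cells. The median log2 ratio over all genes was 0.13. Of 15 endogenous protease inhibitors, 8 had enough UMIs for macrophage-like against DC-like cells, with 2 at least 2-fold higher in the former and 3 in the latter (median log2 ratio -0.16). Cst3 (cystatin C) stood at 3992 CPM in macrophage-like and 9193 in DC-like cells, the opposite direction to the 7 proteases named above. Cstb, the cytosolic cystatin B, stood at 467 against 176 CPM. Serpinb6b and Serpinb9, inhibitors of granule proteases, were at 58.0 and 56.4 CPM in DC-like cells, and within these at 407 and 401 CPM in the mature cluster against 8.39 and 7.51 elsewhere.

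Of 11 class II genes, 0 were at least 2-fold higher in macrophage-like cells and 3 were in DC-like cells, namely H2-Oa, H2-Ob and H2-DMb2 (median log2 ratio -0.43). For this and the next lists, the shares over all genes were 7.30% and 1.76%, with a median of 0.13. Cd74, the substrate of cathepsin S, stood at 17867 against 24039 CPM, lower in macrophage-like cells where Ctss was higher. Of 17 other lysosomal hydrolases and membrane proteins, 9 were at least 2-fold higher in macrophage-like cells and 0 in DC-like cells (median 1.18). Among them were Tpp1, a tripeptidyl peptidase (84.5 against 12.0 CPM), Lipa, the acid lipase (102 against 19.3 CPM), and Lamp1 (557 against 152 CPM). Endosomal Toll-like receptors are cut to active forms by lysosomal proteases. Of 4 measured genes for these receptors and their chaperone Unc93b1, 3 were at least 2-fold higher in macrophage-like cells. Tlr7 stood at 59.2 against 3.09 CPM, Tlr13 at 30.6 against 7.73, Unc93b1 at 393 against 118 and Tlr3, which did not pass, at 17.3 against 14.3.

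Among regulators, Tfec (29.3 against 1.93 CPM) and Mitf (14.6 against 1.93 CPM) were at least 2-fold higher in macrophage-like cells, as were 7.30% of all genes. Tfeb (33.3 against 14.7 CPM) and Spi1 (510.1 against 483 CPM) did not pass that rule, which adds 10 CPM to both levels. Of 6 measured sorting genes for lysosomal enzymes only Scarb2 passed it, at 131 against 28.2 CPM. Of 6 other cathepsins only Ctso and Ctsw had enough UMIs, and neither passed. Of 7 serine proteases that cathepsin C activates, 3 had enough UMIs. Gzma, a granzyme of NK cells, was at 161 CPM in macrophage-like and 5.80 in DC-like cells, and Mcpt8, a basophil protease, had 0 and 49 UMIs. Gzma also led the NK and ILC-like cluster, and the part of NK cell RNA in its macrophage-like level was not tested.

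The patterns of the 9 genes over the 13 clusters were set against each other and against 5651 genes, as Pearson correlations of log2(CPM + 10). The clusters share 1 library and differ in depth, so the values are descriptive. The highest among the 9 were 0.90, for Ctsh with Ctsz, Ctss with Ctsz and Ctsa with Ctsb, and the lowest was -0.37, for Ctsd with Ctsh. Nearest to Ctsb were Adgre1, which encodes the macrophage marker F4/80 (r = 0.99), and Lpl (0.94). Nearest to Ctsh were Ifi30, the thiol reductase of class II processing (0.95), and Prcp (0.92), and nearest to Ctsz were Sowahc (0.94) and Pmaip1 (0.91). Ctsd was nearest to Cd84 (0.93), Lgmn to Hebp1 (0.93) and Acp2 (0.91), and Ctsa to Tgfb1 (0.93) and Lrp1 (0.90). Ctss was nearest to Ifi211 and Dusp3 (both 0.93), Ctsc to Zeb2os (0.91) and Tmem106a (0.90), and Ctsl to 2900097C17Rik (0.94) and Ppt2 (0.91).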

How the data were processed

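For 2 libraries of sorted CD64+ thymus cells the authors deposited counts, unnormalised UMIs for each gene in each barcode. Per the submitters' processing notes, Cell Ranger and the mm10 build were used, and per the file headers the versions were 6.0.0 (2021) and 8.0.0 (2024). Whether intronic reads were counted was not given in the sources used here. The 2024 counts gave depth only. Barcodes shared between the libraries were not counted here.

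All 3188 barcodes that passed the filter were kept; Scrublet called 3 doublets, too few to rely on, and an alternative removed the highest 6% of scores. Clusters (scanpy 1.11.5, igraph 0.11.9, 2000 variable genes, 30 components, 15 neighbours, resolution 0.5 and 1.0) were named from marker lists, with at least 3 raised markers; names are rebuilt here and may differ from the study's. UMIs were summed per class and given as CPM; the ratio code was tested on simulated data. Ratio intervals are exact conditional binomial intervals. Described were all 9 genes, listed genes where a list is described, and the 2 genes nearest in pattern to each of the 9 (at least 50 CPM in 1 cluster). The genes, lists and rules were chosen with earlier results of these data known. A few genes that met these rules are not reported here.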

Additional observations from a re-analysis of the deposited data

How the results depend on the processing

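With 1 library holding gene names, no replicate could be left out. No paired analysis was possible because the 2024 library was used without gene names and the results come from no test. Under 16 alternatives (cell filter, resolution, genes used in clustering, doublet scores, cells chosen by marker UMIs, weighting, thinning, scaling, the added CPM and single clusters), the number of the 9 genes at least 2-fold higher in macrophage-like than DC-like cells ranged from 6 to 8, and the number higher in DC-like cells stayed at 0. Of the alternatives, 2, leaving out cells with the other class's markers and leaving out the Pf4 and Prg4 cells, were chosen after seeing the data. Of 144 ratios, 51 moved beyond the counting interval. Ctsd ranged from 3.44 to 4.84 (log2), Lgmn from 1.5 to 4.19, Ctss from 0.58, with the 75-cell cluster alone, to 1.44, and Ctsz from -0.31, with the 113-cell DC-like cluster alone, to 1.15, with the highest doublet scores removed. Ctsh ranged from -0.94 to 0.23. The number of the 9 with their highest level in macrophage-like cells was 7 and ranged from 5 to 9 over the 9 of these alternatives in which it was computed. The value of 5 came with thinning, where Ctsb and Ctsd were highest in NK and ILC-like cells. Only 8 of those cells were left after thinning. Without thinning, Ctsd was also highest in NK and ILC-like cells under the stricter cell filter, at resolution 1.0 and without the Pf4 and Prg4 cells. Over monocyte-like cells 3 of the 9 genes passed, 3 against the larger monocyte-like cluster alone and 5 against the dividing one, comparisons also chosen after seeing the data; the cause was not tested. Scaling by median ratios subtracted a shift of -0.01 from every log2 ratio, so each rose slightly. Levels that rest on few UMIs (Ctsl, and Ctsa in mature DC-like cells) are limited by depth.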
